A study of Homo sapiens with 12 samples.

Results

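The Notch genes described here are 9 of the 22545 gene symbols in a deposited RNA sequencing count table: the receptors NOTCH1, NOTCH2 and NOTCH3, the ligands JAG1, JAG2 and DLL1, the DNA-binding factor RBPJ, and the target genes HES1 and HEY1. They were chosen by symbol, with no measured value in the rule, and all 9 passed the filter on low counts that left 14207 genes tested. The libraries came from HaCaT, an immortalised human keratinocyte line, labelled genotype WT in every group. There were 4 groups of 3 libraries: cells with no treatment (WT), cells given M5 (M5), cells given M5 and lefamulin (ML), and cells given M5 and retapamulin (MR). In psoriasis work the name M5 is used for a mixture of proinflammatory cytokines. What it held in this study, and every dose, exposure time and solvent, was not given in the sources used here. Pleuromutilins, the antibiotic class of lefamulin and retapamulin, are named in the series title as agents against psoriasis, so the question is how each drug group's Notch genes stand relative to M5 alone. No group received a pleuromutilin without M5, so effects of the drugs apart from M5 were not measured.

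Notch signalling runs between touching cells. A ligand of the Jagged or Delta-like family on one cell pulls on a Notch receptor on its neighbour, which exposes the receptor to cutting by ADAM proteases and then by gamma-secretase, and the freed intracellular domain joins RBPJ and Mastermind proteins on DNA to switch on genes such as HES1 and HEY1. In the epidermis, Notch activity accompanies the exit of keratinocytes from the basal layer into differentiation, with NOTCH1 and JAG1 among the best studied members and HES1 a marker of spinous cells. The transcript levels reported here do not measure cut receptor or ligand on the cell surface.

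Library totals lay between 35110519 and 37520999 counts, and no 2 libraries held identical values. Replicate 2 of the untreated cells stood apart from replicates 1 and 3, with chi-square values per gene of 8.58 and 7.50 against 2.69 to 4.98 for every other pair within a group. The labels do not say that replicates were separate cultures, so p-values measure the spread between these libraries, which may be technical. All 7 keratinocyte markers examined passed the filter, with summed levels of 3925 to 3957 CPM (counts relative to the library total, scaled by the TMM method of edgeR) in WT, 2991 to 3107 in M5, 4503 to 4573 in ML and 4872 to 4941 in MR. KRT14, a defining basal keratin, was the lowest of them, at group means of 0.73 to 8.52 CPM. Whether the shifts in these markers bear on the results below was not tested. Among markers of other cells, the leukocyte sum was at most 1.79 CPM, the melanocyte sum at most 2.44 and the fibroblast sum 5.61 to 16.9. In bulk RNA, fewer cells making a transcript and less transcript per cell cannot be told apart.

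HES1 is the classical direct Notch target, and its promoter is shown because RBPJ, one of the genes described, binds the letters marked in it. The 250 bases before the RefSeq start of HES1 (build GRCh38.p14, chr3:194135898-194136147, plus strand, 5′ to 3′) are given with the RBPJ core TGGGAA in capitals.
HES1: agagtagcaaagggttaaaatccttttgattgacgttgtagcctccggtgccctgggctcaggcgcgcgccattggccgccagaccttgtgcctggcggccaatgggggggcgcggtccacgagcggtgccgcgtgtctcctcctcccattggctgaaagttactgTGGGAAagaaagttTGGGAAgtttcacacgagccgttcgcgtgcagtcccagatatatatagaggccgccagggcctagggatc
The capitals mark 2 copies, at bases -84 to -79 and -70 to -65 from the start, in the same orientation. Searched on both strands, TGGGAA was present in 20.8% of 35116 RefSeq windows of this length, and 2.90% held 2 or more copies. The HES1 window also held 3 copies of the N-box CACNAG, the letters that HES proteins bind, against 32.0% of windows with any copy and 6.32% with 2 or more. TGANTCA (an AP-1 site) and TTCNNNGAA (a STAT site) were not found in it; each was present in 6.57% of windows. Windows were given for 7 of the 9 genes. TGGGAA was not found in those of NOTCH1, NOTCH2, NOTCH3, JAG1 or JAG2, and 1 of 5 RBPJ windows held 2 copies. These are letter matches in fixed windows; binding was not measured.

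The 3 ligands went separate ways with M5 and the same way with both drugs. DLL1 rose with M5 and fell back to about its untreated level in ML and MR. JAG2 fell with M5 and fell further with either drug, to 0.362 and 0.401 times its untreated level in ML and MR. JAG1 did not pass the test with M5 and was lower with each drug. Among receptors, NOTCH1 fell with M5 and was higher again with the drugs, NOTCH2 did not pass with M5 and was higher with each drug, and NOTCH3 fell with M5 and passed neither drug comparison. RBPJ was higher in both drug groups than in M5. HES1 was lower in M5 than in untreated cells and lower in both drug groups than in M5. Its means were 36.2 CPM in untreated cells, 26.9 in M5, 19.7 in ML and 18.5 in MR, and ML and MR overlapped.

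Called here means an adjusted p under 0.05 from edgeR's quasi-likelihood test, with Benjamini-Hochberg adjustment over all genes tested. Of the 9 genes, 2 were higher and 4 lower in M5 than in WT, where 28.3% of all tested genes were higher and 26.9% lower, 55.2% called in all. In 6 of the 9 the libraries of the 2 groups did not overlap, as in 59.2% of all genes. In ML against M5, 3 were higher (33.6% of all genes) and 5 lower (34.3%), beside 67.9% called in all, and 8 did not overlap (71.2%). In MR against M5, 3 were higher (34.1%) and 5 lower (38%), beside 72.1% called, and 8 did not overlap (73.8%). These 2 comparisons share the same M5 libraries as control, so they are not independent. Between ML and MR, 2 genes were higher in ML (18.8%) and 1 lower (21.2%), beside 40% called, and 5 did not overlap (52%). Against untreated cells, ML had 2 genes higher (36.9%), 4 lower (37.1%) and 7 without overlap (76.1%), beside 74% called. MR had 2 higher (37.6%), 5 lower (40.9%) and 8 without overlap (79.2%), beside 78.5% called. The counts are read beside those background shares, and no test of the difference was made. The median size of the log2 fold change over the 9 genes was 0.37 with M5, 0.37 in ML against M5 and 0.45 in MR against M5. Over all tested genes it was 0.25, 0.37 and 0.46, so with either drug the Notch genes moved about as far as the median gene.

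The scale matters for small changes. Scaling by library totals alone, in place of TMM, put the median log2 fold change of all genes at -0.14 in place of -0.02 for M5 against WT, -0.19 in place of -0.05 for MR against M5 and -0.31 in place of -0.06 for MR against WT. Taken relative to the median gene, the 9 genes' values were the same to within 0.01 under either scaling, for example 0.17 for RBPJ in M5 against WT. This holds nearly by construction, because a change of scaling shifts all genes of a comparison by about the same amount. It does not show which scaling is right. Among all called genes, the share that was higher moved from 51.3% on TMM to 31.5% on library totals for M5 against WT, from 49.9% to 38.6% for ML against WT and from 47.8% to 33.7% for MR against WT. Between ML and MR it was 47.0% on TMM, 72.8% on library totals and 36.8% with RLE factors. Values below are on the TMM scale unless stated.

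**Figure D1:**
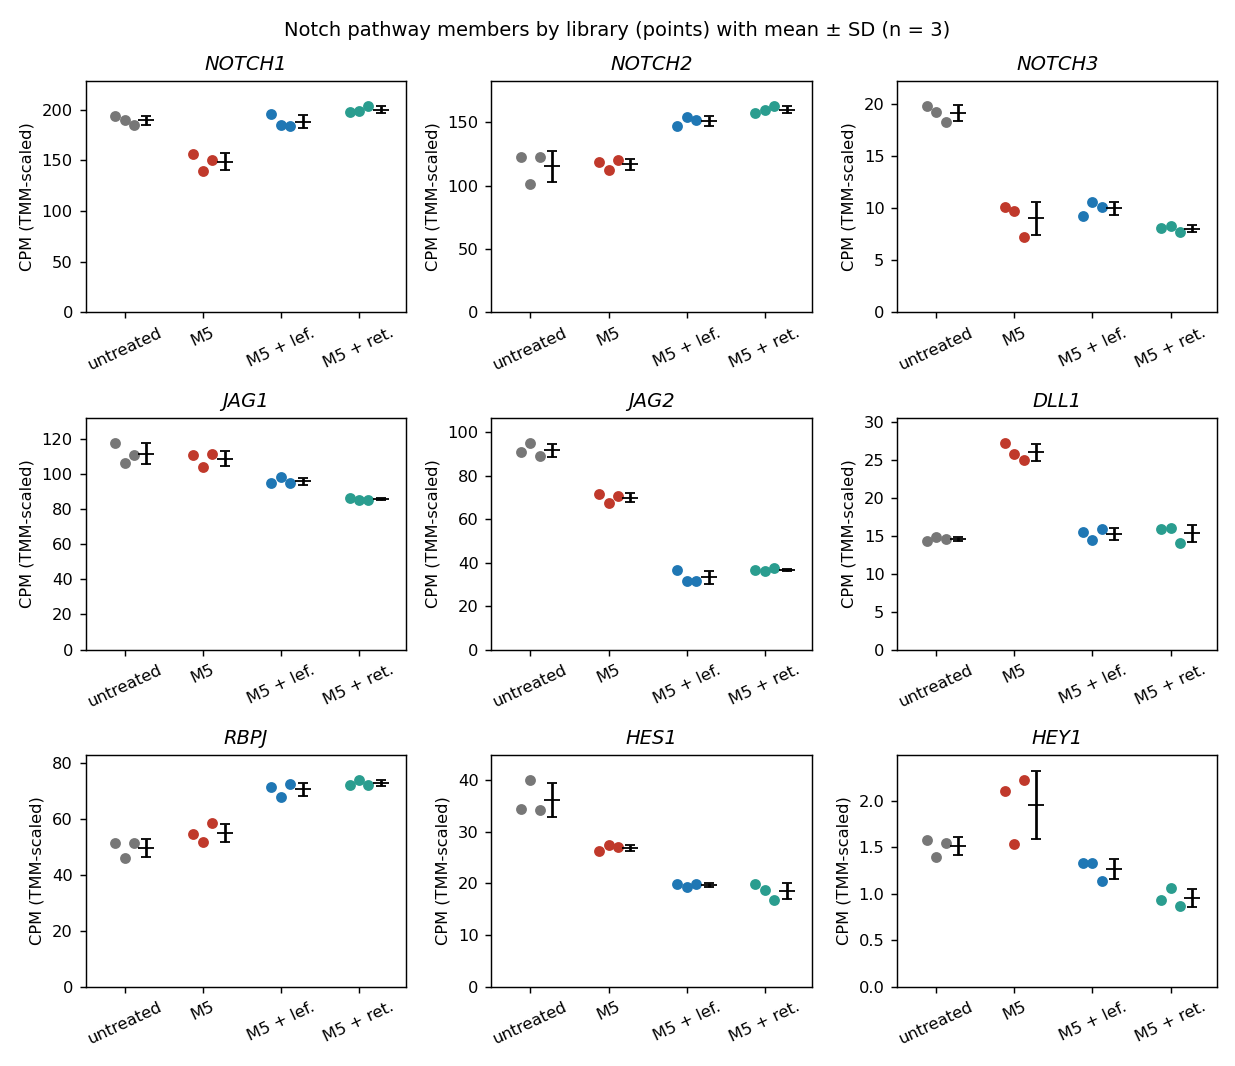
Each panel plots 1 gene's level in TMM-scaled CPM (y axis, from 0) for the 3 libraries of each group (points) with the mean and SD beside them (bar). DLL1 peaks in M5 at 24.99 to 27.2 CPM, JAG2 and HES1 are lower in each treated group than in untreated cells, and NOTCH1 dips in M5 alone.

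DLL1, a Delta-like ligand, measured 14.3, 14.9 and 14.5 CPM in WT, 27.2, 25.7 and 24.99 in M5, 15.5, 14.4 and 15.8 in ML, and 15.9, 15.9 and 14.0 in MR. The M5 libraries stood above all others, and the other 3 groups overlapped. With M5 the log2 fold change was 0.83 (SE 0.07, edgeR adjusted p 2.3e-10, n = 3 per group). DLL1 then fell by 0.77 on the log2 scale in ML (SE 0.07) and by 0.76 in MR (SE 0.07) relative to M5, with edgeR adjusted p of 5.6e-10 and 5.3e-10. Against untreated cells the interval of the log2 difference was -0.09 to 0.21 in ML and -0.08 to 0.22 in MR, and the MR value of 0.07 becomes -0.18 on library totals.

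JAG2, a Jagged ligand, measured 90.9, 94.97 and 88.8 CPM in WT, 71.6, 67.4 and 70.5 in M5, 36.6, 31.3 and 31.5 in ML, and 36.5, 36.2 and 37.3 in MR. WT was above M5, and M5 above both drug groups, with no overlap. JAG2 fell by 0.39 on the log2 scale with M5 (SE 0.05, edgeR adjusted p 1.9e-07). Relative to M5 it fell by 1.08 in ML (SE 0.05, edgeR adjusted p 3.3e-15) and by 0.93 in MR (SE 0.05, edgeR adjusted p 3.8e-14). These were the furthest drug responses relative to M5 among the 9 genes, apart from that of HEY1 in MR, which rests on 30 to 83 counts per library. The fall from WT was 1.47 in ML and 1.32 in MR.

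JAG1, the other Jagged ligand and the most abundant of the 3 per transcript length in every group, measured 118, 106 and 111 CPM in WT, 111, 104 and 111 in M5, 94.8, 98.2 and 94.6 in ML, and 86.2, 85.1 and 85.2 in MR. WT and M5 overlapped, with a log2 difference of -0.04 (95% interval -0.12 to 0.05). On library totals that difference is -0.16 and called. Relative to the median gene it is -0.02 under both scalings, a value that hardly depends on the scaling by construction. All ML libraries lay below those of M5, and all MR libraries below those of ML. JAG1 fell by 0.18 in ML (SE 0.04, edgeR adjusted p 0.00039) and by 0.35 in MR (SE 0.04, edgeR adjusted p 5.3e-08) relative to M5.

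NOTCH1, the receptor with the highest FPKM in every group, measured 194, 190 and 185 CPM in WT, 157, 140 and 150 in M5, 195, 185 and 184 in ML, and 197, 199 and 204 in MR. Every M5 library lay below every library of the other groups. NOTCH1 fell by 0.35 with M5 (SE 0.04, edgeR adjusted p 5.0e-08). Relative to M5 it was higher by 0.34 in ML (SE 0.04, edgeR adjusted p 5.0e-08) and by 0.43 in MR (SE 0.04, edgeR adjusted p 6.7e-10). ML and WT overlapped, with a log2 difference of -0.01 (95% interval -0.09 to 0.07) that is -0.18 and called on library totals. For MR against WT the value is 0.08 on TMM and -0.18 on library totals, so no direction against untreated cells is given.

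NOTCH2, which shares its first exons with human NOTCH2NL copies, measured 122, 101 and 123 CPM in WT, 119, 112 and 120 in M5, 147, 154 and 152 in ML, and 158, 159 and 163 in MR. WT and M5 overlapped (log2 difference 0.02, 95% interval -0.09 to 0.12), and both drug groups lay above them. The rise relative to M5 was 0.37 in ML (SE 0.05, edgeR adjusted p 7.9e-07) and 0.45 in MR (SE 0.05, edgeR adjusted p 2.4e-08). Of all 50-base stretches of a full-length NOTCH2 transcript, 4.03% also occur in GENCODE 29 transcripts of NOTCH2NLA, so part of these counts could be split between copies. No other NOTCH2NL copy was among the transcripts searched. NOTCH2NLA itself measured 7.02 ± 0.71 CPM in WT, 7.41 ± 0.57 in M5, 8.93 ± 0.48 in ML and 11.3 ± 1.77 in MR (SD, n = 3). Of NOTCH2NL copies, 3 were tested. All 3 were called higher in MR than in M5 and 1 in ML, beside 34.1% and 33.6% of all genes. On library totals the ML count is 0. NOTCH2NLC libraries of MR and M5 overlapped, at 56 to 250 counts in MR and 47 to 80 in M5. NOTCH2NLB had 147 to 182 counts per library in MR and 80 to 105 in M5.

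NOTCH3, a receptor with a narrower tissue range, measured 19.8, 19.2 and 18.3 CPM in WT, 10.2, 9.70 and 7.21 in M5, 9.29, 10.6 and 10.1 in ML, and 8.14, 8.29 and 7.72 in MR. All treated libraries lay below all untreated ones, while M5 overlapped both drug groups. NOTCH3 fell by 1.08 with M5 (SE 0.10, edgeR adjusted p 1.7e-09), a size reached by 10.3% of tested genes. Relative to M5 the values were 0.15 in ML (95% interval -0.07 to 0.36) and -0.16 in MR (-0.39 to 0.06), neither called. M5 replicate 3 was the low library of its group, and without it the MR value is -0.30 and called (edgeR adjusted p 0.00799). On library totals it is also -0.30 and called (edgeR adjusted p 0.0174), and relative to the median gene it is -0.11 under both scalings.

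RBPJ, the factor through which all 3 receptors act on DNA, measured 51.3, 45.8 and 51.4 CPM in WT, 54.6, 51.8 and 58.3 in M5, 71.4, 67.8 and 72.3 in ML, and 72.1, 73.8 and 72.2 in MR. Both drug groups lay above every WT and M5 library and overlapped each other. RBPJ was higher by 0.36 in ML (SE 0.05, edgeR adjusted p 5.6e-07) and 0.40 in MR (SE 0.05, edgeR adjusted p 7.4e-08) than in M5. The M5 value of 0.15 (SE 0.05, edgeR adjusted p 0.0132) is called with all libraries. It is lost on library totals (0.03, adjusted p 0.591), without WT replicate 2 (0.10, adjusted p 0.0847) and without M5 replicate 3 (0.11, adjusted p 0.0863). Of 50-base stretches of an RBPJ transcript, 1.31% also occur in RBPJ pseudogenes.

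HES1, a transcriptional repressor, measured 34.4, 39.9 and 34.1 CPM in WT, 26.2, 27.4 and 27.1 in M5, 19.9, 19.3 and 19.9 in ML, and 19.9, 18.7 and 16.8 in MR. WT lay above M5 and M5 above both drug groups without overlap, while ML and MR overlapped. HES1 fell by 0.43 with M5 (SE 0.06, edgeR adjusted p 4.9e-06). Relative to M5 it fell by 0.45 in ML (SE 0.07, edgeR adjusted p 2.9e-06) and 0.54 in MR (SE 0.07, edgeR adjusted p 1.6e-07). Against untreated cells the fall was 0.88 in ML and 0.97 in MR. HES1 was lower in the 2 groups where NOTCH1, NOTCH2 and RBPJ transcripts were higher than in M5 and where all 3 ligands were lower. With M5, HES1 fell while DLL1 rose, JAG1 was not called, and JAG2, NOTCH1 and NOTCH3 fell. Whether these changes are linked was not tested.

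HEY1, a related repressor, had the lowest FPKM of the 9 in every group, with 30 to 83 counts per library. It measured 1.58, 1.40 and 1.55 CPM in WT, 2.11, 1.54 and 2.23 in M5, 1.33, 1.33 and 1.14 in ML, and 0.934, 1.06 and 0.874 in MR. WT and M5 overlapped, and every drug-treated library lay below every M5 library. The M5 value of 0.37 (95% interval -0.10 to 0.85) was not called. HEY1 fell by 1.03 in MR (SE 0.24, edgeR adjusted p 0.00054) and by 0.63 in ML (SE 0.23, edgeR adjusted p 0.0205) relative to M5. The ML call is lost without M5 replicate 1 (edgeR adjusted p 0.0634), M5 replicate 3 (0.0801) or ML replicate 3 (0.0688).

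**Figure D2:**
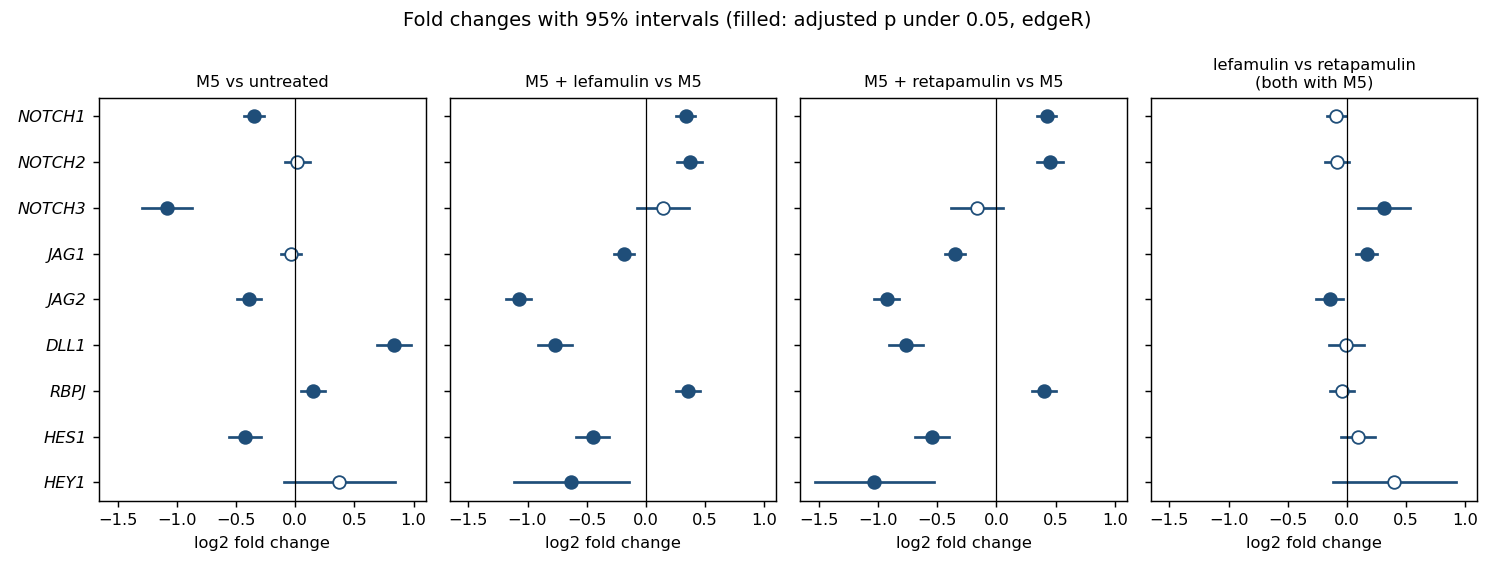
Each panel plots 1 comparison, with the log2 fold change on the x axis and a horizontal line for its 95% interval; filled points are called by edgeR. JAG2 and DLL1 lie left of 0 in both drug panels and HES1 lies left of 0 in the first 3 panels, whereas most points of the lefamulin against retapamulin panel lie near 0.

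Levels of different genes were compared per transcript length, on the deposited FPKM. NOTCH1 was the largest receptor share of the summed NOTCH1, NOTCH2 and NOTCH3 level, at 62.3% ± 2.10 in WT, 58.7% ± 0.731 in M5, 58.5% ± 1.49 in ML and 59.0% ± 0.127 in MR (SD, n = 3). NOTCH2 took 30.7% ± 2.39, 37.4% ± 0.853, 38.1% ± 1.25 and 38.3% ± 0.0705 in the same order. The NOTCH1 share of M5 libraries overlapped that of ML (exact permutation p 0.8) and MR (exact permutation p 0.6), while the NOTCH2 share of MR lay above that of M5 without overlap (exact permutation p 0.1). NOTCH3 was the smallest share, at 6.93% ± 0.310 in WT, 3.93% ± 0.714 in M5, 3.43% ± 0.245 in ML and 2.62% ± 0.132 in MR. M5 and ML overlapped in it (exact permutation p 0.4), and MR lay below both without overlap (exact permutation p 0.1 each). Exact two-sided permutation tests of 3 against 3 libraries cannot go below p 0.1, so no share can pass 0.05; M5 against WT gave 0.1 for each of the 3 receptors, and 0.129 after adjustment over 36 relations.

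The ligand mix moved again with the drugs. JAG1 made up 48.8% ± 1.86 of the summed JAG1, JAG2 and DLL1 FPKM in WT and 49.1% ± 0.679 in M5, which overlapped, and 62.3% ± 1.85 in ML and 58.1% ± 0.402 in MR, which did not overlap M5 or each other. JAG2 fell from 41.2% ± 1.58 of the ligand level in WT to 32.5% ± 0.0448 in M5, 22.1% ± 1.63 in ML and 25.6% ± 0.630 in MR. DLL1 took 10.003% ± 0.333, 18.4% ± 0.724, 15.5% ± 0.808 and 16.3% ± 1.02. The summed ligand level was 42.2 FPKM in WT, 37.7 in M5, 25.4 in ML and 22.8 in MR, with no overlap between any 2 groups (exact permutation p 0.1 for each pair, the smallest possible). The summed receptor level was 34.9, 26.8, 32.9 and 32.6 FPKM. ML and MR overlapped in it, and both lay below WT. On TMM-scaled CPM, which is also not divided by length, the order turns: ML is 1.08 times and MR 1.14 times the WT level, and ML lies below MR without overlap.

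**Figure D3:**
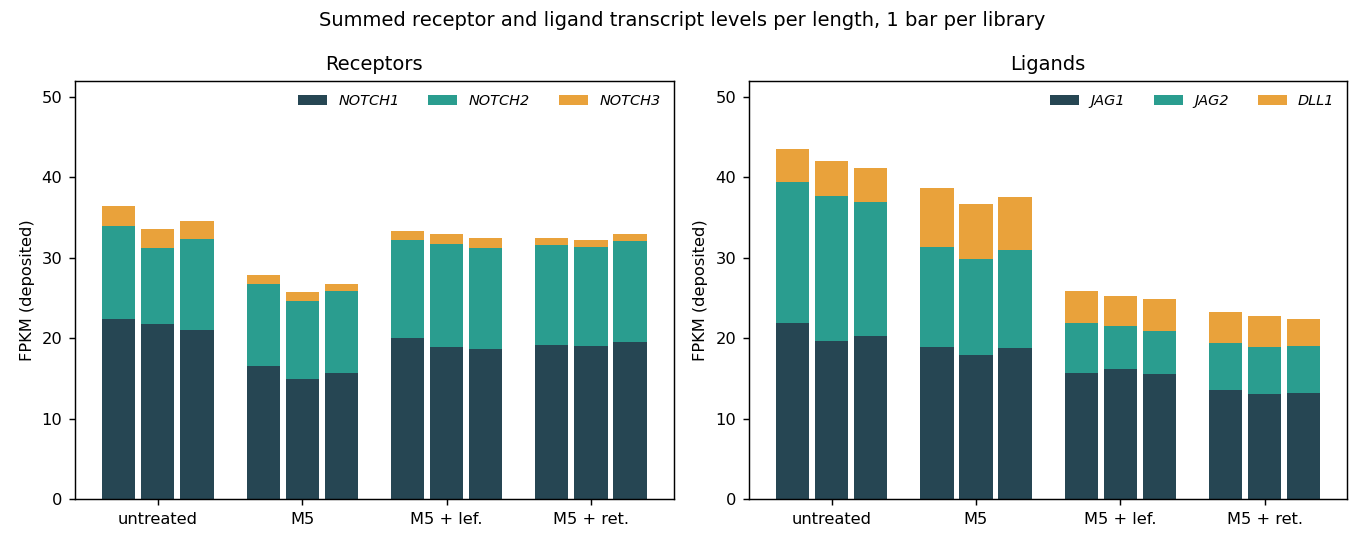
Stacked bars give the deposited FPKM of the 3 receptors (left) and the 3 ligands (right) in each of the 12 libraries, from 0. Summed ligand level steps down from WT (mean 42.2) to MR (22.8), while the summed receptor level is lowest in M5 (26.8).

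Lefamulin and retapamulin share the tricyclic pleuromutilin core and differ in the side chain. Whether doses and times matched is unknown here, so the values of the 2 drug groups stand side by side and a difference cannot be set against dose. Over this 1 pair and all tested genes, JAG1 was higher in ML than in MR by 0.17 (95% interval 0.08 to 0.25, edgeR adjusted p 0.0027), with no overlap between the libraries. NOTCH3 was higher in ML by 0.31 (0.09 to 0.53, edgeR adjusted p 0.0235), a call lost without ML replicate 2 (adjusted p 0.0947), ML replicate 3 (0.0592) or MR replicate 3 (0.0804). JAG2 was lower in ML by a log2 value of -0.15 (-0.26 to -0.03, edgeR adjusted p 0.0353), but the libraries overlapped and 10 of the alternative settings lost the call. For the other 6 genes the main fit found no difference at this threshold, which does not show that the drugs act alike. The libraries of NOTCH1, NOTCH2 and HEY1 did not overlap between the 2 groups. The intervals of lefamulin minus retapamulin were -0.17 to -0.01 for NOTCH1, -0.19 to 0.02 for NOTCH2, -0.14 to 0.06 for RBPJ, -0.16 to 0.14 for DLL1, -0.05 to 0.24 for HES1 and -0.12 to 0.92 for HEY1. On library totals HES1 is higher in ML by 0.18 and called (edgeR adjusted p 0.0465). Of 22 alternative settings, 6 called NOTCH1 lower in ML, 2 called NOTCH2 lower, 2 called HES1 higher and 1 called HEY1 higher. NOTCH1 is -0.12 with DESeq2 (DESeq2 adjusted p 0.0074) and 0.0006 on library totals (edgeR adjusted p 0.992).

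The surrounding pathway was followed in lists of genes that sort by step, with 71 tested of 78 listed and 75 in the table. With M5, 26 were higher and 20 lower; 25 and 30 in ML against M5; and 28 and 27 in MR against M5, again with the shared M5 control. Among all tested genes, 28.3% were higher and 26.9% lower with M5, 33.6% and 34.3% in ML, and 34.1% and 38% in MR. The counts in the lists below are to be read beside these shares, and no list was tested against other genes. On library totals the counts are 19 higher and 30 lower for M5, and 19 and 35 for MR against M5, so the balance of directions depends on the scaling. Between ML and MR, 12 were higher in ML and 15 lower, against 23 and 5 on library totals. A further receptor and a target were close to the floor: NOTCH4 had at most 9 counts in any library, and HES5, a Notch target of neural tissue, at most 1.

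DLL4, a Delta-like ligand best known from blood vessels, went from 2 to 5 counts per library in WT to 52 to 108 in M5, 118 to 148 in ML and 57 to 65 in MR. The log2 fold change with M5 was 4.49 (SE 0.38, edgeR adjusted p 3.8e-10). DLL4 was higher in ML than in M5 by 0.92 (SE 0.24) and than in MR by 1.03 (SE 0.24). Its group mean was at most 3.74 CPM. Of 5 endothelial markers 2 were tested, and their list summed to 14.6 to 16.7 CPM in WT against 99.8 to 123 in the other groups. Nearly all of that sum was CDH5, at 15.5 CPM in WT, 120 in M5, 119 in ML and 105 in MR. The other tested marker, VWF, measured 0.476 CPM in WT, 0.0543 in M5, 2.34 in ML and 2.23 in MR, and the defining markers PECAM1 and TIE1 had 6 and 2 counts over all 12 libraries. The part of these markers in the DLL4 values was not tested. DLK2, a Delta-like relative that lacks the usual receptor-binding domain, fell by 1.60 with M5 and by a further 1.28 in ML and 0.61 in MR.

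The sugar-adding enzymes that tune which ligands a receptor answers to moved in opposite directions. LFNG, the Lunatic fringe enzyme, measured 10.4 ± 0.82 CPM in WT, 4.42 ± 0.75 in M5, 0.906 ± 0.30 in ML and 0.275 ± 0.070 in MR (SD, n = 3). Its log2 fold change was -1.23 with M5, and relative to M5 -2.28 in ML and -3.98 in MR (SE 0.16, 0.20 and 0.25; edgeR adjusted p 5.8e-07, 4.4e-10 and 4.9e-13). The drug values rest on few counts per library, 24 to 45 in ML and 7 to 12 in MR against 133 to 185 in M5, which limits the precision of their size. MFNG, the Manic fringe enzyme, went the other way, with 6.63 CPM in M5 and 12.6 in ML and 12.4 in MR (log2 0.93 and 0.90, SE 0.10 each). POFUT1, which adds the fucose that fringe enzymes extend, rose by 0.30 with M5 and then fell, with log2 values of -0.83 in ML and -0.97 in MR relative to M5 and -0.53 and -0.67 relative to WT. Of 9 glycosylation genes tested, 4 were higher and 1 lower with M5, 1 higher and 6 lower in ML, and 2 higher and 5 lower in MR. On library totals the M5 counts are 4 and 3.

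Of 9 genes of receptor cutting tested, 5 were higher with M5 and the other 4 were not called, beside 28.3% of all genes higher. Relative to M5, 6 were higher and 1 lower in each drug group, beside 33.6% of all genes higher in ML and 34.1% in MR. On library totals the MR counts are 3 and 1. ADAM17, a protease of the first cut, measured 74.1 ± 2.21 CPM in WT, 105 ± 4.15 in M5, 145 ± 2.61 in ML and 158 ± 1.58 in MR. NCSTN, a gamma-secretase subunit, was the 1 gene lower in the drug groups, by a log2 value of -0.24 in ML and -0.31 in MR.

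Genes of ligand uptake and receptor turnover changed in both directions. NEURL1, an E3 ligase of ligand endocytosis, fell by 0.95 with M5 and was higher by 0.99 in ML and 1.04 in MR than in M5, at 33.9, 17.6, 35.04 and 36.2 CPM in the 4 groups. Its relative NEURL1B fell by 1.68 with M5, and relative to M5 by 1.54 in ML and 2.54 in MR. NEURL1B had 96 to 128 counts per library in M5, 35 to 38 in ML and 15 to 21 in MR. DTX2, a Deltex E3 ligase, rose by 2.01 with M5 (SE 0.05, edgeR adjusted p 2.2e-20) and fell by 0.52 in ML and 0.56 in MR. NEDD4, a ubiquitin ligase that acts on Notch, rose by 0.64 with M5 and fell by 1.70 in ML and 1.53 in MR. ITCH, a ligase of the same kind, and NUMB, an inhibitor of the receptor, were higher in ML by 0.59 and 0.44 and in MR by 0.82 and 0.51 than in M5. Of the 6 uptake genes tested, 0 were higher and 3 lower with M5, 4 and 2 in ML, and 3 and 1 in MR. On library totals the uptake counts are 0 and 5 with M5 and 3 and 3 in MR. Of the 10 turnover genes tested, 5 were higher and 3 lower with M5, 2 and 4 in ML, and 5 and 4 in MR. On library totals the MR counts are 3 and 5. Of all genes, 55.2%, 67.9% and 72.1% were called in these comparisons.

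Among nuclear partners, MAML2, a Mastermind coactivator, fell by 1.13 with M5 and by 0.90 in ML and 0.75 in MR relative to M5. KAT2A, an acetyltransferase, fell by 0.89 in ML and 1.22 in MR. TLE3, a Groucho-type corepressor, rose by 1.00 with M5 and fell relative to M5, with log2 values of -0.53 in ML and -0.50 in MR. Coactivators counted 5 higher and 3 lower of 10 with M5, 2 and 5 in ML, and 3 and 3 in MR. Corepressors counted 5 and 6 of 19, 8 and 8, and 8 and 8. On library totals coactivators count 3 and 6 in MR against M5, and corepressors 3 and 10 with M5, so these balances depend on the scaling.

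Of 6 other target and feedback genes tested, 1 was higher and 3 lower with M5, 1 and 3 in ML, and 1 and 4 in MR relative to M5. HES4, a HES relative, was lower in the same comparisons as HES1, with 27.6 CPM in WT, 18.0 in M5, 14.4 in ML and 14.3 in MR. It fell by 0.61 with M5 (SE 0.07, edgeR adjusted p 3.6e-08), and relative to M5 the log2 values were -0.32 in ML and -0.33 in MR (edgeR adjusted p 0.00033 and 0.00023). NRARP, a Notch target that restrains the pathway, measured 45.3 ± 1.23 CPM in WT and 45.3 ± 0.75 in M5, then fell by 0.87 in ML and by 1.60 in MR relative to M5 (SE 0.05 each, edgeR adjusted p 1.9e-13 and 2.6e-18). HES2 fell by 0.30 with M5 and by 0.51 in MR relative to M5. HES6, a HES relative known for opposing HES1, went from 11 to 20 counts per library in M5 to 188 to 219 in ML and 63 to 88 in MR, a log2 rise of 3.65 (SE 0.24) and 2.31 (SE 0.25).

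**Figure D4:**
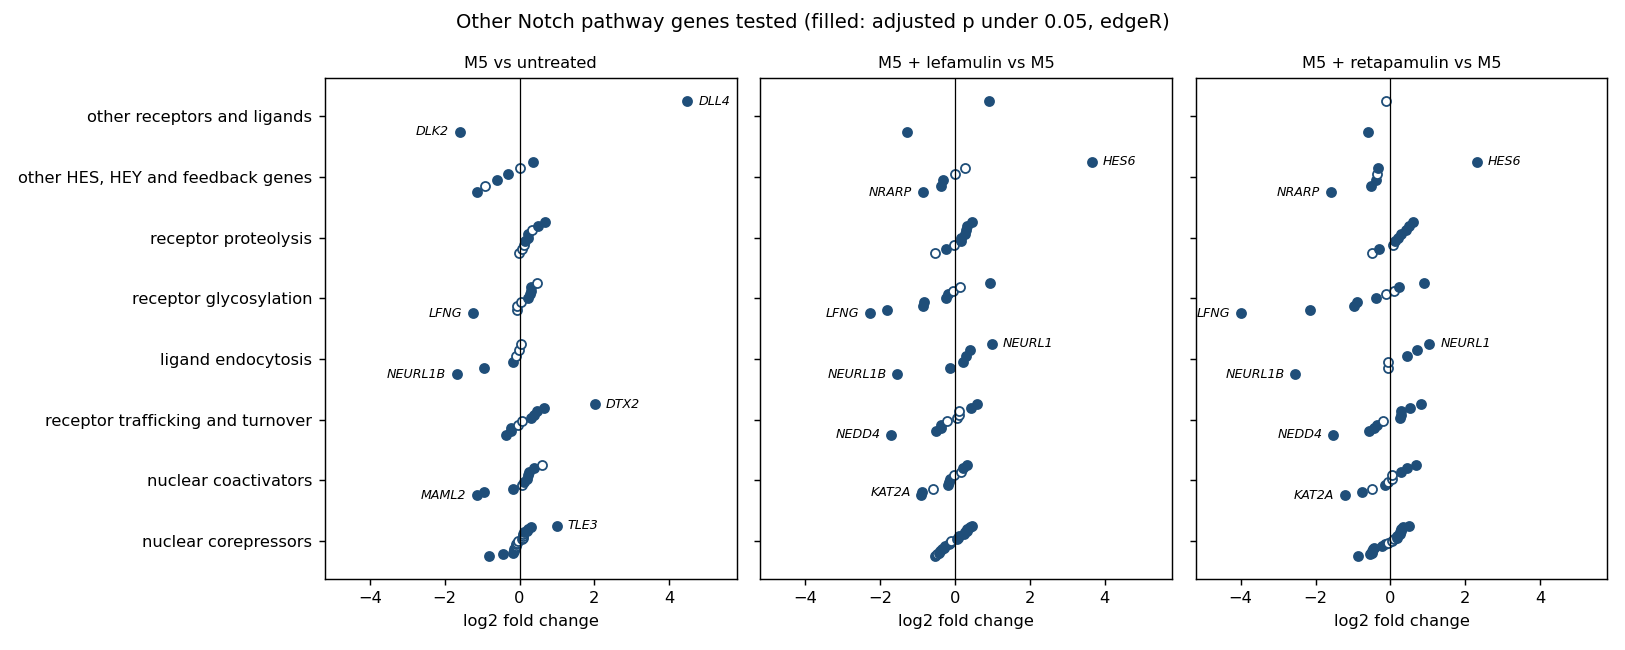
Points are the 71 other pathway genes tested, sorted by step, with the log2 fold change on the x axis; filled points are called by edgeR. DLL4 (4.49) and DTX2 (2.01) stand furthest right with M5, and LFNG stands furthest left with each drug (-2.28 and -3.98). LFNG had 24 to 45 counts per library in ML and 7 to 12 in MR.

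Keratinocyte genes with a described link to Notch gave mixed values. CDKN1A, a cell cycle inhibitor that Notch can induce, measured 28.1 CPM in WT, 90.4 in M5, 935 in ML and 1242 in MR, all 3 steps called. TP63, a basal factor that acts against Notch in keratinocytes, rose by 1.13 with M5 and fell by 1.00 in ML and 1.40 in MR. KRT10, a keratin of differentiating cells, fell by 0.44 with M5, and IVL, the cornified envelope protein involucrin, fell by 4.30.

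The genes whose profile over the 12 libraries lay nearest to each member were found by the root-mean-square difference of mean-centred log2 CPM, among 10211 genes with a mean of at least 5 CPM. For HES1 they were SUOX (0.0795) and LSM4 (0.0818), for JAG2 CDT1 (0.0739) and NUCKS1 (0.0780), and for DLL1 PSMA6 (0.0739) and ENTPD5 (0.0876). For NOTCH1 they were ARHGAP10 (0.0535) and PAPSS1 (0.0538), for NOTCH2 BRWD3 (0.0385) and RB1CC1 (0.0449), and for RBPJ KDM2A (0.0392) and MTMR6 (0.0453). JAG1 lay nearest to INCENP (0.0402) and PRPF4B (0.0452). NOTCH3 lay nearest to GALM (0.119) and KRT13 (0.141) and HEY1 to TRUB1 (0.134) and PACRGL (0.140). Within a distance of 0.1 lay 497 genes for JAG1, 385 for RBPJ, 290 for NOTCH2, 70 for NOTCH1 and 39 for HES1. For JAG2 there were 7, for DLL1 6, and for NOTCH3 and HEY1 0. A distance of this kind also grows with how far a gene itself moves: the spread of a gene's own log2 CPM was 0.158 for JAG1 and 0.499 for NOTCH3.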

How the data were processed

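RNA of 12 HaCaT libraries was analysed from 2 deposited tables. The authors deposited whole-number counts per gene symbol, with no normalization, and FPKM for the same genes and libraries. The submitters' processing notes name HISAT2 and HTSeq; versions, strand setting, build and annotation: not given in the sources used here. In 20422 genes, the ratio of count to FPKM matched 1 gene length times the library total. The labels' extraction text describes mouse epidermis although the labelled source is HaCaT, so it was not used.

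Counts were fitted in R 4.3.3 with edgeR 4.0.16 (TMM, filterByExpr by group, quasi-likelihood F test, 1 mean per group, all 12 libraries, 6 comparisons), with Benjamini-Hochberg adjustment over 14207 tested genes; 8338 were not tested. CPM uses TMM-scaled totals, and intervals are 95%. Receptor and ligand shares of FPKM were compared by exact permutation. Alternatives were library totals, RLE factors, DESeq2 1.42.0, other filters, limma 3.58.1 on log2(FPKM + 1) and log2(FPKM + 0.1), only the 2 groups compared, a replicate block and leaving out each library. The fit was tested on simulated data in which a small set of genes changed, in M5 only. That setting cannot test the scaling where many genes move. Promoter windows are RefSeq's (GRCh38.p14); shared stretches were searched in GENCODE 29 transcripts.

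The genes, lists and tests were chosen with earlier results of these data known. Named from each other pathway list were, per comparison, up to 2 called genes that rose furthest and 2 that fell furthest, with at least 1 CPM in either group; NOTCH4, HES5, PECAM1, TIE1, CDH5 and NOTCH2NLA were named outside that rule, after their values were seen, as were some values of genes in comparisons where the rule did not pick them. Some genes that the rule picks are not reported here. Nearest profiles were the 2 closest genes per member.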

Additional observations from a re-analysis of the deposited data

How the results depend on the processing

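Over 6 comparisons and 22 alternatives, 1127 of 1188 single-gene values kept their side of the threshold. The alternatives include leaving out libraries of groups that a comparison does not use. Such runs change its values little, so the tally leans towards agreement. A further 24 lost the call, 29 gained it and 8 changed sign and were called under the alternative. The 1127 include sign changes of values called under neither fit. NOTCH2 in M5 against WT, for example, is 0.02 on TMM and -0.10 on library totals. The 8 called sign changes all concern MR against WT. NOTCH1 is -0.18 on library totals, -0.17 with limma on log2(FPKM + 1), with and without the filter, and -0.18 on log2(FPKM + 0.1). DLL1 is -0.18, -0.15, -0.15 and -0.18 in the same order. These scales hold no composition factor. Between ML and MR, the number of the 9 genes called is 1 in place of 3 with limma on log2(FPKM + 1) without a filter; leaving out 1 library at a time gave 1 to 4; the cause was not tested. On TMM-scaled CPM, not divided by length, the NOTCH1 share of receptors is 58.5% in WT, 54.2% in M5, 53.9% in ML and 54.3% in MR, and the JAG1 share of ligands 51.2%, 53.2%, 66.5% and 62.2%; longer genes gain weight by construction. Replicate numbers are shared between groups, but only 3 of 18 same-numbered pairs had correlated deviations over 0.1 (range -0.144 to 0.184), against 5 of 36 differently numbered pairs, so they were not taken as pairs. With the replicate block, all 60 values kept their call, for example 6 genes called in M5 against WT. HEY1 counts of 30 to 83 limit its precision.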
